A study of Mus musculus with 30 samples.

Results

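A set of 36 mouse genes for lysosomal hydrolases, lysosomal membrane proteins and the regulators Grn and Tfeb was followed across hippocampus RNA of 30 mice in 6 treatment groups. The list holds no cathepsin. Its rule names genes by symbol and sets no threshold on a measured value, although the list was drawn up with earlier results of these data known. All 36 genes were found, in 37 of the 21412 rows of the count table. The annotation gives the symbol Glb1 to 2 rows with different Ensembl identifiers, and carries Tfeb under its older symbol Tcfeb. All 37 rows passed the filter on low values in every comparison.

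The mice were male and of the inbred BALB/c strain, with no genetic change, and were sequenced as 5 animals in each of the groups Ctr, LD, HD, Se_Ctr, Se_LD and Se_HD. Methylmercury (MeHg), an organic mercury compound found in seafood that reaches the brain, was mixed into the feed at 0 (Ctr), 0.28 (LD) or 5 (HD) mg/kg for 11 weeks, in animals 2 to 3 weeks old on arrival and housed singly. The other groups are labelled Se_Ctr, Se_LD and Se_HD, read here as the same 3 mercury levels with selenium added to the diet. Their mercury level in mg/kg, selenium dose, age and time on diet are not given in the sources used here. Diet and any difference in how the arms were run therefore cannot be told apart. Each library is 1 animal, and replicate numbers name animals without pairing them.

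The lysosome is the acidic compartment in which cells break down material taken up from outside or delivered by autophagy. Its soluble hydrolases are made in the endoplasmic reticulum, are mostly tagged with mannose-6-phosphate and sorted to the organelle, while its membrane proteins shield the limiting membrane and move ions, lipids and amino acids across it. The transcription factor TFEB activates many of these genes through a short palindromic E-box, and loss of a single hydrolase causes a storage disease that in many cases damages the brain. In brain tissue all cell types have lysosomes, and microglia, the resident phagocytes, are especially rich in them.

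Reads on genes ranged from 5768208 to 11510521 per library, and no pair of libraries agreed within sampling noise. Markers of hippocampal neurons summed to 6619 to 12550 normalized counts per library, and none of the 7 was at 0 in all 5 mice of a group. The summed level of 6 choroid plexus markers ran from 273.1 to 36880 normalized counts over all mice. Among the HD libraries, replicates 2 and 5 stood apart. The summed level of 16 microglia markers was 9181 normalized counts in HD replicate 2 and 7964 in HD replicate 5, against 4580, 3743 and 5216 in HD replicates 1, 3 and 4 and 2964 to 3296 in Ctr mice. The main counts of members in comparisons with HD mice, and the log2 differences of members that rose, are therefore also given without these 2 libraries, a choice made after seeing the data. In a bulk tissue sample, more cells of a type and more RNA per cell cannot be told apart.

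Because TFEB-type E-boxes mark many lysosomal genes, the window from 250 bases before to 50 bases after the annotated start was read from the RefSeq promoter table (build GRCm38.p6), which held a window for 33 of the 36 genes. The hexamer CACGTG, which equals its own reverse complement, was present for 10 of these 33 genes (30.3%), and for 8.09% of all genes in the same table. The longer palindrome TCACGTGA, which contains the hexamer, was present for Mcoln1, Cln3 and Gla (9.09% of the 33 genes, 1.12% of all genes). A match is a description of these letters in this window only. Shown are the member with the most copies (Lamp1), the 3 with the longer palindrome, Lgmn as the one member with the hexamer among those that rose in HD mice, and Cd63 and Npc2 as members that rose and have no copy. Each sequence runs 5′ to 3′ on the strand of the gene, with CACGTG in capitals.
Lamp1, chr8:13158911-13159210, plus strand: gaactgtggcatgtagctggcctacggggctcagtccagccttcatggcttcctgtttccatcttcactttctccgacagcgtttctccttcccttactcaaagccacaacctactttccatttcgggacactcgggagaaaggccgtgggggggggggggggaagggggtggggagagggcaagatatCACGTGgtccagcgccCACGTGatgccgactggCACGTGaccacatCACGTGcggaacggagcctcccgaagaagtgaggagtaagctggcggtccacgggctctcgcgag
Mcoln1, chr8:3500269-3500568, plus strand: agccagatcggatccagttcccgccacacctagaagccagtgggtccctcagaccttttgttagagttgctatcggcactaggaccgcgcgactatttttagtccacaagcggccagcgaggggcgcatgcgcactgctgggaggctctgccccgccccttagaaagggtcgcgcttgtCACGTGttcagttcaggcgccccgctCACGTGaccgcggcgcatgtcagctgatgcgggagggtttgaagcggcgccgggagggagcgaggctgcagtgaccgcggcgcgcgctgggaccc
Cln3, chr7:126583187-126583486, minus strand: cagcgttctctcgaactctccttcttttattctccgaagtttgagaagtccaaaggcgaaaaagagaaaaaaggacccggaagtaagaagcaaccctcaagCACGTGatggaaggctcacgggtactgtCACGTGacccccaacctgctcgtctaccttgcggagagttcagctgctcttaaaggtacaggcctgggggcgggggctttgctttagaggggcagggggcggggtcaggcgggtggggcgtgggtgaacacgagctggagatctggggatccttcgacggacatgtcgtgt
Gla, chrX:134600956-134601255, minus strand: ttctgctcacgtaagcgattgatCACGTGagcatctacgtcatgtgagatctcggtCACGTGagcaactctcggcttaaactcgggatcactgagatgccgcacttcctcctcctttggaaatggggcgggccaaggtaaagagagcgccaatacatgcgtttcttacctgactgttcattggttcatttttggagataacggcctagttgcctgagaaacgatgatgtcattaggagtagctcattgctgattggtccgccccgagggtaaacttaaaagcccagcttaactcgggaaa
Lgmn, chr12:102439043-102439342, minus strand: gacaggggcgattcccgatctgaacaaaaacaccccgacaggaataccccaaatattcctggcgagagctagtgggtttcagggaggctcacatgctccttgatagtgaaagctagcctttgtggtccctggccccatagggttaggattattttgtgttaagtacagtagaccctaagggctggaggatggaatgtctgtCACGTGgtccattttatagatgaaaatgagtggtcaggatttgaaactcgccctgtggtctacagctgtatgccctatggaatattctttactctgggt
Cd63, chr10:128909095-128909394, plus strand: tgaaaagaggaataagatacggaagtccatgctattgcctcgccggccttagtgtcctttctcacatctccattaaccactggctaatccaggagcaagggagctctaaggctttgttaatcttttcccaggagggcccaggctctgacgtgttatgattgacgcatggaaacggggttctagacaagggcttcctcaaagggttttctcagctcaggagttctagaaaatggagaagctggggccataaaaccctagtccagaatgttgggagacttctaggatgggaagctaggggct
Npc2, chr12:84773063-84773362, minus strand: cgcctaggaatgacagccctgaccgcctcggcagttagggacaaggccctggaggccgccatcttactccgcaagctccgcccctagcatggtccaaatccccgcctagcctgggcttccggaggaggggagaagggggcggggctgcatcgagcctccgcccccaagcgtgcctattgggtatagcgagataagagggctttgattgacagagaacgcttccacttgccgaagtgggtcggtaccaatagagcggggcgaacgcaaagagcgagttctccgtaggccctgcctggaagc
The 4 copies in the Lamp1 window begin 61, 45, 28 and 15 bases before the start, those of Mcoln1 71 and 45 bases before it, and those of Gla 227 and 194 bases before it. In Lgmn the single copy lies 49 bases before the start of one of 2 annotated windows. Of the 9 genes that rose in HD mice, 1 had the hexamer (11.1%), and of the 24 other members with a window, 9 had it (37.5%).

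Levels differed between members far more than groups did. Normalized counts (reads divided by a size factor for library depth), further divided by exon length, averaged 4973 per kb over all 30 mice for Psap, the precursor of the saposins that present lipids to hydrolases, and 6.40 per kb for Tfeb. Next in order came Ids with 1352 per kb and Laptm4a with 1008 per kb. Within roles, membrane proteins had a median of 103.9 per kb, glycosidases 51.4, sulfatases 100.3, genes of lipid breakdown 172 and the 3 enzymes acting on proteins 239 per kb. Tfeb was the lowest of all member rows per kb and Psap the highest.

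**Figure D1:**
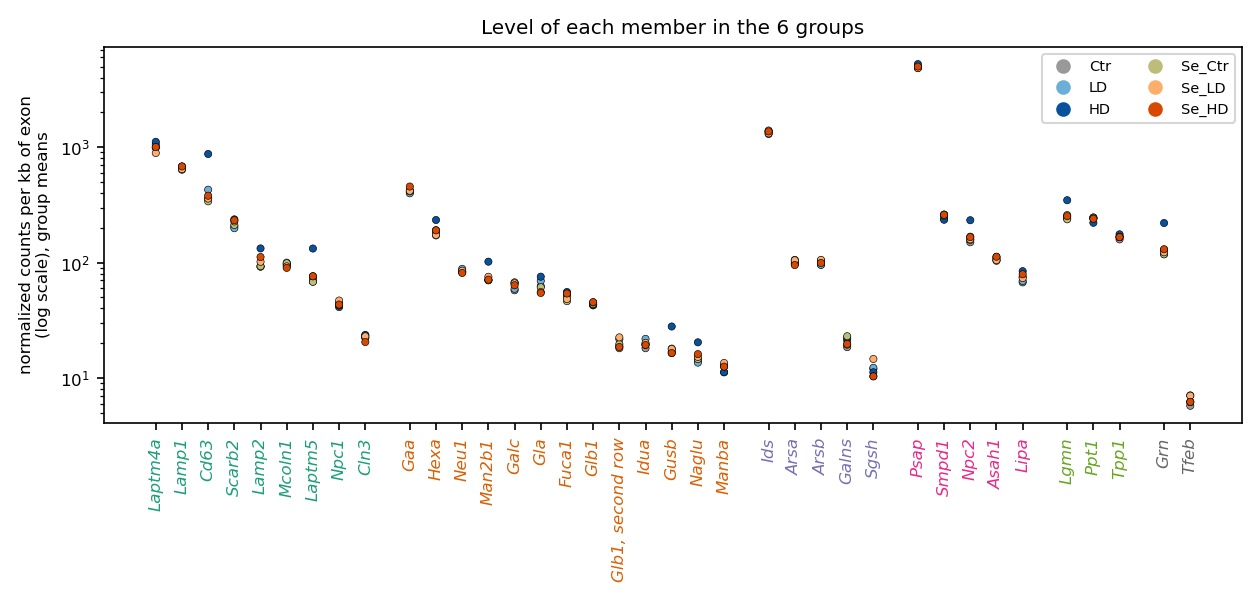
Level of each member row in the 6 groups. Each point is the mean of 5 mice in normalized counts per kb of exon on a log axis, genes are ordered by level within role, and Psap lies highest and Tfeb lowest.

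The main question was which members changed with mercury in the feed. In HD mice 9 of the 37 member rows were higher than in Ctr and none was lower, where 5.09% of the 20031 genes tested changed, 3.36% higher and 1.73% lower, and 8.34% had a comparison p under 0.05 whatever the F test. Those that rose were the membrane proteins Cd63, Laptm5 and Lamp2, the glycosidases Gusb, Man2b1 and Hexa, the cholesterol carrier Npc2, the protease Lgmn and progranulin, Grn. A gene was said to rise or fall where limma gave a p under 0.05, not adjusted, for the comparison and for the F test over the 3 groups of the diet, and fold changes are differences of log2(normalized count + 1). Adjusted over all genes by Benjamini-Hochberg, 1 of the 9 passed in limma (Npc2), and none by limma without trend, against 26 genes (0.13%) in all. The median log2 difference over the member rows was 0.12 (0.01 over all genes), and 30 of 37 were above 0, as were 51.2% of all genes. Without HD replicates 2 and 5, 4 members still passed (Cd63, Npc2, Laptm5 and Lamp2), where 3.09% of all genes did. Between 6 and 10 members passed when any 1 of the 10 libraries was left out, with 6 without HD replicate 2 and 6 without HD replicate 5.

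**Figure D2:**
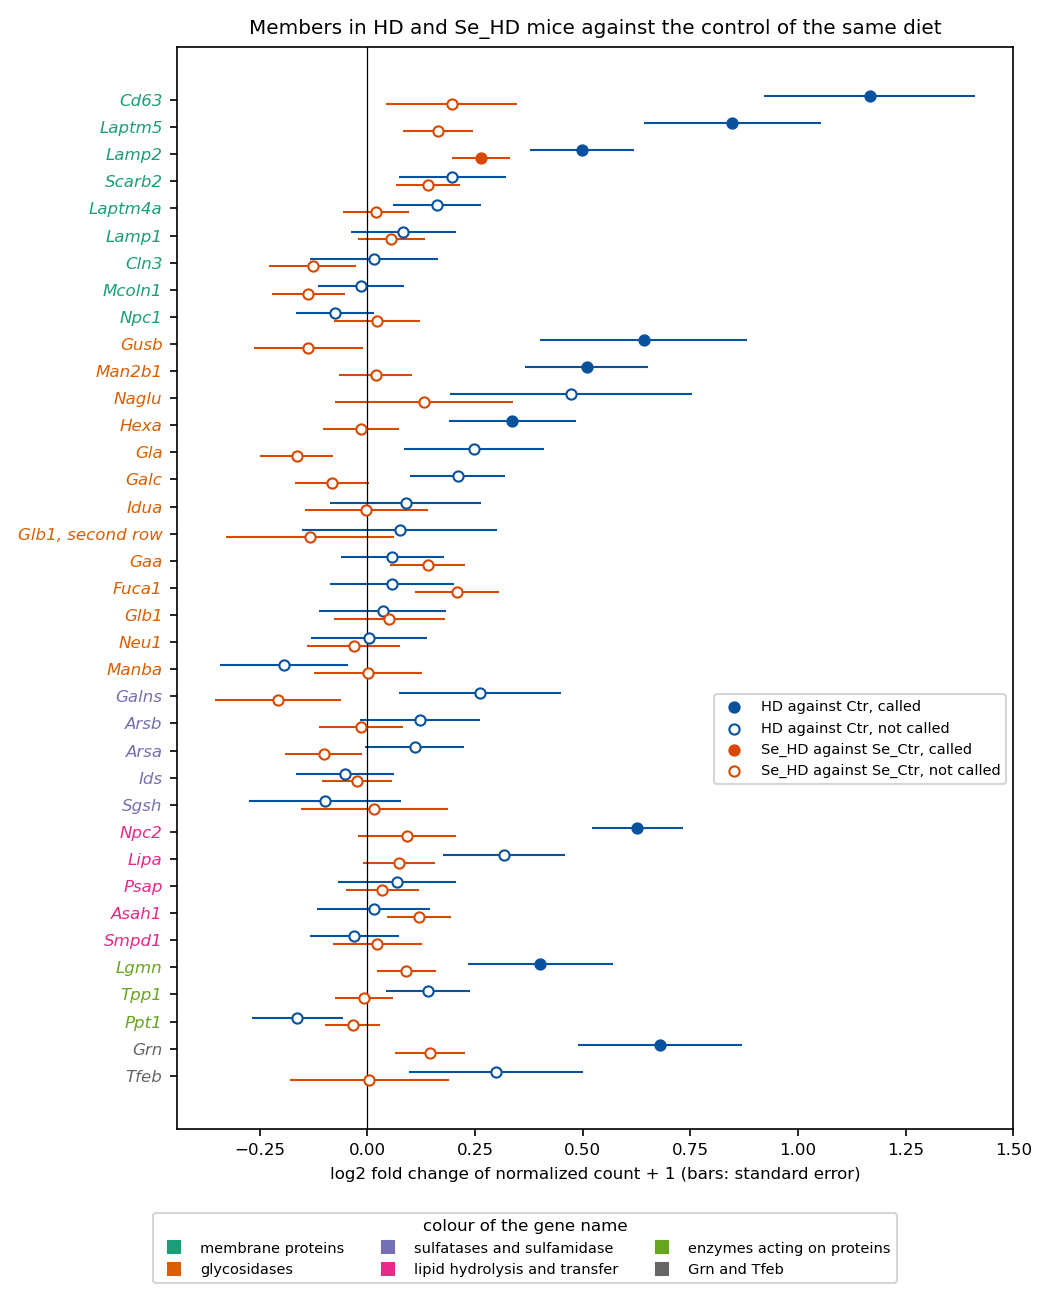
Difference of HD from Ctr (blue) and of Se_HD from Se_Ctr (orange) for each member row, as log2 of normalized count + 1 with its standard error. Filled points passed the test, which were 9 in HD and 1, Lamp2, in Se_HD mice.

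The largest differences of HD from Ctr were those of the membrane proteins Cd63 and Laptm5. Cd63, a tetraspanin of late endosomes, lysosomes and exosomes (NCBIM37 chr10:128345975-128349872), was measured at 338, 403, 361, 283 and 450.1 normalized counts in the 5 Ctr mice, 350.4, 623, 523, 386 and 322 in LD mice and 969.8, 1695, 489, 596 and 749 in HD mice. With selenium its values were 368, 361, 359, 216 and 445 in Se_Ctr, 453, 376, 295, 439.6 and 285 in Se_LD and 427, 415, 399.5, 365 and 350.2 in Se_HD mice. The lowest HD mouse exceeded the highest Ctr mouse, the highest LD mouse lay inside the HD range, and no selenium-fed mouse reached the lowest HD value. The log2 difference of HD from Ctr was 1.17 (SE 0.25, adjusted p = 0.0695 in limma), or 2.24-fold, and 0.85 without HD replicates 2 and 5 (adjusted p = 0.445 in limma).

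Laptm5, a lysosomal protein of blood and immune cells (NCBIM37 chr4:130469040-130492056), stood at 299.5, 262, 269, 215 and 251 in Ctr, 284, 316, 289, 219.5 and 251 in LD and 313, 734, 309.7, 413 and 736 in HD mice. Its values were 284, 249, 252, 283 and 220.1 in Se_Ctr, 275, 287, 276, 307 and 298 in Se_LD and 264, 269, 293, 318 and 298 in Se_HD mice. HD replicates 2 and 5 were far above all other mice, HD replicates 1 and 3 lay just above the highest Ctr mouse and below the highest LD and Se_HD mice, and the log2 difference was 0.85 (SE 0.21, adjusted p = 0.123 in limma). It was 0.41 without HD replicates 2 and 5 (adjusted p = 0.692 in limma). Lamp2, which coats the lysosomal membrane and serves as the receptor of chaperone-mediated autophagy (NCBIM37 chrX:35754534-35809631), was measured at 768, 936, 915, 892 and 900.2 in Ctr, 913, 896, 958, 743 and 892 in LD and 1034, 1754, 1113, 1295 and 1139 in HD mice. Under selenium it stood at 856, 871, 939, 931 and 848 in Se_Ctr, 932, 1033, 882, 1102 and 899 in Se_LD and 975, 1086, 1060, 1111 and 1105 in Se_HD mice. Both mercury groups at the higher dose separated fully from their own control, with a log2 difference of 0.50 (SE 0.12) in HD and 0.26 (SE 0.07) in Se_HD mice and adjusted p of 0.123 and 1.0 in limma. The HD difference of Lamp2 was 0.38 without HD replicates 2 and 5 (adjusted p = 0.557 in limma).

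The 6 other membrane proteins did not pass, and their log2 differences of HD from Ctr ran from -0.08 to 0.20. They are Lamp1, the partner of Lamp2 in the membrane coat, Scarb2, the transporter of glucocerebrosidase, the cholesterol exporter Npc1, the calcium channel Mcoln1, the Batten disease protein Cln3, and Laptm4a. Laptm4a, the member of this role with the highest level per kb, stood at 2419, 1720, 2222, 2013 and 2176 in Ctr, 2025, 2208, 2121, 2223 and 2561 in LD and 2449, 2203, 2061, 2545 and 2497 in HD mice. With selenium Laptm4a was read at 2316, 2214, 1943, 1820 and 2176 in Se_Ctr, 2061, 1988, 1930, 1699 and 1723 in Se_LD and 2137, 2355, 1939, 2064 and 2098 in Se_HD mice, and the groups overlapped. Cln3, the lowest per kb, was read at 155, 122, 132, 105 and 162 in Ctr, 154, 117, 143, 118 and 116 in LD and 122, 145, 111, 137 and 166 in HD mice. Its Se_Ctr values were 133, 144, 142, 113 and 116, its Se_LD values 130.0, 128, 128, 140.4 and 137 and its Se_HD values 117, 115, 141, 117 and 102. Neither gene separated any group from its control. Exons of Apobr on the other strand cover 7.65% of those of Cln3, and the strand setting of the counting is not given in the sources used here, so part of its reads may be from that gene. The same holds for Lamp1, which shares 7.85% of its exon bases with Grtp1 on the other strand, and for Npc1, which shares 1.79% with 3110002H16Rik.

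Of 13 glycosidase rows, 3 rose in HD mice and none fell. Gusb, the beta-glucuronidase of glycosaminoglycan breakdown (NCBIM37 chr5:130464881-130478919), was measured at 80.9, 83.4, 86.0, 62.0 and 61.4 normalized counts in Ctr, 62.8, 79.8, 89.6, 89.0 and 64.7 in LD and 68.6, 227, 89.0, 99.7 and 151 in HD mice. Its selenium values were 74.1, 87.3, 72.7, 93.2 and 81.1 in Se_Ctr, 83.0, 83.6, 80.4, 85.0 and 73.1 in Se_LD and 61.8, 92.6, 62.3, 75.1 and 81.9 in Se_HD mice. HD replicate 1 lay inside the Ctr range while HD replicate 2 was the highest of all 30 mice, and the log2 difference of 0.64 (SE 0.24, adjusted p = 0.422 in limma) was 0.40 without HD replicate 2, 0.55 without HD replicate 5 and 0.20 without both, none of which passed.

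Man2b1, the lysosomal alpha-mannosidase of N-glycan breakdown (NCBIM37 chr8:87607168-87622638), was read at 337, 289, 282, 249 and 373 in Ctr, 320.1, 259, 329, 334 and 279 in LD and 329.5, 531, 375, 416 and 549.9 in HD mice. Its levels were 298, 322, 269.6, 340.5 and 288 in Se_Ctr, 305, 363, 306, 351 and 304 in Se_LD and 308, 306, 285, 355 and 284 in Se_HD mice. In Man2b1, 4 of the 5 HD mice were above every Ctr mouse, with a log2 difference of 0.51 (SE 0.14, adjusted p = 0.185 in limma) that was 0.29 without HD replicates 2 and 5 and did not pass. Hexa, the alpha subunit of the hexosaminidase missing in Tay-Sachs disease (NCBIM37 chr9:59387474-59412914), stood at 408, 299.5, 399.7, 265 and 341 in Ctr, 297, 304, 363, 344 and 299 in LD and 327, 455, 420.5, 374 and 607 in HD mice. In the selenium arm Hexa was 382, 333, 345, 351 and 372 in Se_Ctr, 318, 314, 365, 335 and 292 in Se_LD and 325, 311, 342, 443 and 356 in Se_HD mice. Its HD and Ctr ranges overlapped, the log2 difference was 0.34 (SE 0.15, adjusted p = 0.534 in limma), and it stopped passing without any one of Ctr replicates 2 and 4 and HD replicates 2 and 5, at 0.21 to 0.31, and without both HD replicates at 0.14.

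The other 10 glycosidase rows had log2 differences from -0.19 (Manba) to 0.47 (Naglu). Naglu, which removes N-acetylglucosamine from heparan sulfate, was 35.0, 76.7, 31.4, 45.0 and 82.5 in HD and 39.9, 57.9, 28.4, 22.5 and 39.6 in Ctr mice, so that HD replicates 2 and 5 alone were above the Ctr range. Gaa, the acid glucosidase that digests glycogen and the highest per kb, stood at 1902, 1878, 2080, 1671 and 2179 in Ctr, 1792, 2024, 1929, 2401 and 1380 in LD and 2233, 1831, 1988, 2032 and 2002 in HD mice. For Se_Ctr the Gaa values were 2175, 1965, 1903, 2125 and 1748, for Se_LD 1931, 2487, 2015, 1915 and 1665 and for Se_HD 2032, 2371, 2178, 2217 and 2107. All groups of Gaa overlapped. Manba, the beta-mannosidase and the lowest per kb, was 103, 83.4, 95.4, 72.1 and 97.2 in Ctr, 82.6, 70.8, 64.4, 76.1 and 95.8 in LD and 68.6, 81.6, 76.8, 82.0 and 82.5 in HD mice. It was 91.2, 80.4, 97.3, 94.1 and 74.5 in Se_Ctr, 80.3, 109.6, 87.0, 114 and 78.7 in Se_LD and 93.8, 80.8, 81.2, 86.5 and 94.3 in Se_HD mice, again with overlap. The remaining rows are those of the galactosidases Gla and Glb1, the galactosylceramidase Galc, the iduronidase Idua, the sialidase Neu1 and the fucosidase Fuca1, at 0.00 to 0.25. The 2 rows of Glb1 share exon bases on the same strand, so how reads were divided between them is uncertain. The second row shares 5.65% of its exon bases with the first, and whether it stands for the same enzyme was not tested. Exons of Idua overlap those of Slc26a1 (3.35%) and Dgkq (2.95%) on the other strand, with the same limit as for Cln3.

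None of the 5 sulfatase rows passed in HD against Ctr, in limma, edgeR or DESeq2, nor at an unadjusted p of the comparison alone. Their log2 differences ran from -0.10 (Sgsh) to 0.26 (Galns). Ids, the iduronate sulfatase that is highest of the role per kb, was measured at 6262, 6706, 6706, 8736 and 6237 in Ctr, 6812, 7506, 6145, 6366 and 8193 in LD and 6548, 6075, 7152, 6963 and 6457 in HD mice. Its Se_Ctr values were 6953, 7126, 6734, 8158 and 6600, those of Se_LD 5687, 6677, 7049, 6305 and 7874 and those of Se_HD 7078, 6916, 6583, 6928 and 7414. Sgsh, the heparan sulfamidase and lowest per kb, was 62.8, 52.8, 44.4, 48.5 and 56.3 in Ctr, 45.0, 50.2, 68.9, 60.3 and 46.0 in LD and 41.7, 42.4, 54.1, 55.5 and 53.3 in HD mice. With selenium Sgsh stood at 56.0, 41.5, 49.2, 49.3 and 32.3 in Se_Ctr, 70.4, 53.5, 65.9, 84.2 and 48.1 in Se_LD and 41.2, 49.0, 48.2, 47.8 and 41.5 in Se_HD mice, where 3 Se_LD mice exceeded all Se_Ctr mice. Arsa and Arsb, the arylsulfatases, share 18.8% and 45.3% of their exon bases with noncoding RNA genes on the other strand, and Sgsh 21.6% with Card14, so their counts are uncertain in the same way as those of Cln3.

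Among the 5 genes of lipid breakdown and transfer, Npc2 was the member with the smallest p. Npc2, the soluble protein that hands cholesterol to NPC1 (NCBIM37 chr12:86095510-86114062), was measured at 539.7, 442, 499, 437 and 527 normalized counts in Ctr, 526, 596, 572, 545 and 493 in LD and 732, 885, 597, 775 and 807 in HD mice. Its values with selenium were 592, 525, 489.9, 391 and 563 in Se_Ctr, 623, 587, 431, 520.1 and 431 in Se_LD and 521, 592, 573, 554 and 469 in Se_HD mice. Every HD mouse was above every Ctr, LD and Se_HD mouse, HD replicate 3 by less than 1 normalized count over the highest LD mouse. The log2 difference from Ctr was 0.63 (SE 0.11, adjusted p = 0.0167 in limma), or 1.54-fold, and an exact two-sided permutation test of 5 against 5 mice gave 0.00794, the smallest p that this design allows. Without HD replicates 2 and 5 it was 0.52 (SE 0.11, adjusted p = 0.27 in limma), and over all alternatives the adjusted p ran from 3.01e-05 to 0.27, with 0.0524 to 0.0866 without any one of Ctr replicates 2 and 4 and HD replicates 4 and 5.

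Lipa, the acid lipase of cholesteryl esters and the lowest of the role per kb, stood at 149.7, 208, 186, 249 and 207 in Ctr, 208, 209.9, 214, 189.8 and 205 in LD and 195, 322, 280.0, 239 and 214 in HD mice. With selenium Lipa was 212, 227, 229, 237 and 211 in Se_Ctr, 189.5, 238, 231, 228 and 202 in Se_LD and 220.3, 255, 212, 237 and 250.3 in Se_HD mice. Its log2 difference of HD from Ctr, 0.32 (SE 0.14), had an unadjusted p of 0.0363 in limma but did not pass the F test. Psap was measured at 16610, 11850, 13280, 11860 and 14810 in Ctr, 13300, 11410, 14920, 15440 and 11380 in LD and 15320, 11530, 13760, 15250 and 15740 in HD mice. In the selenium arm Psap was 14810, 13220, 13160, 12600 and 12710 in Se_Ctr, 13260, 15590, 11890, 13580 and 11690 in Se_LD and 12750, 14860, 14220, 13400 and 12900 in Se_HD mice. All groups of Psap overlapped, and the sphingomyelinase Smpd1 and the ceramidase Asah1 had log2 differences of -0.03 and 0.01.

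Of the 3 enzymes acting on proteins, the asparaginyl endopeptidase Lgmn rose (NCBIM37 chr12:103632294-103678023). It was read at 658, 528, 576, 535 and 612 in Ctr, 574, 541, 617, 621 and 446 in LD and 597, 1312, 597, 639 and 885 in HD mice. With selenium Lgmn was 567, 553, 577, 522 and 534 in Se_Ctr, 609, 671, 535, 609 and 572 in Se_LD and 594, 592, 561, 646 and 542 in Se_HD mice. Only HD replicates 2 and 5 were above the Ctr range, and the log2 difference of 0.40 (SE 0.17, adjusted p = 0.505 in limma) became 0.07 without both, which did not pass. Ppt1, which removes palmitate from proteins, was 925, 892, 869, 976 and 853 in Ctr, 966, 731, 886, 876 and 996 in LD and 623, 807, 871, 874 and 887 in HD mice. In Se_Ctr Ppt1 stood at 829, 894, 1006, 935 and 849, in Se_LD at 933, 932, 818, 912 and 849.8 and in Se_HD at 907, 909, 891, 849 and 843. Exons of Cap1 on the other strand cover 3.51% of those of Ppt1, so its counts carry the same limit as those of Cln3. Neither Ppt1 nor the tripeptidyl peptidase Tpp1 passed. Tpp1 was 524, 538, 583, 548 and 618 in Ctr, 584, 527, 602, 564 and 672 in LD and 508, 678, 625, 659.8 and 637 in HD mice. With selenium Tpp1 was 592, 571, 588, 623 and 583 in Se_Ctr, 621, 636, 534, 627 and 520.2 in Se_LD and 574, 613, 569.5, 617 and 568 in Se_HD mice.

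Progranulin, encoded by Grn (NCBIM37 chr11:102291629-102298123), is a secreted and lysosomal protein needed for normal hydrolase activity. Grn was measured at 443, 379, 409, 382 and 426 in Ctr, 356, 358, 436, 433 and 288 in LD and 499, 1021, 419, 584 and 951 in HD mice. Its values were 370.3, 381, 392, 393 and 322 in Se_Ctr, 361, 427, 386, 393 and 370.3 in Se_LD and 375, 406, 395, 495 and 388 in Se_HD mice. HD replicates 2 and 5 were far above the highest Ctr mouse and HD replicate 3 lay inside the Ctr range, with a log2 difference of 0.68 (SE 0.19, adjusted p = 0.185 in limma) that was 0.28 without both and did not pass. Tfeb stood at 36.2, 30.6, 38.7, 31.6 and 25.6 in Ctr, 31.4, 42.5, 44.4, 30.6 and 26.1 in LD and 41.7, 35.9, 35.8, 44.2 and 42.5 in HD mice. With selenium Tfeb was 29.4, 32.9, 36.3, 34.0 and 43.0 in Se_Ctr, 57.8, 44.3, 29.0, 32.5 and 35.2 in Se_LD and 29.7, 40.9, 34.0, 36.4 and 34.8 in Se_HD mice. The log2 difference of Tfeb in HD from Ctr was 0.30 (SE 0.20) and did not pass (exact permutation p = 0.0476, adjusted p = 0.765 in limma).

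**Figure D3:**
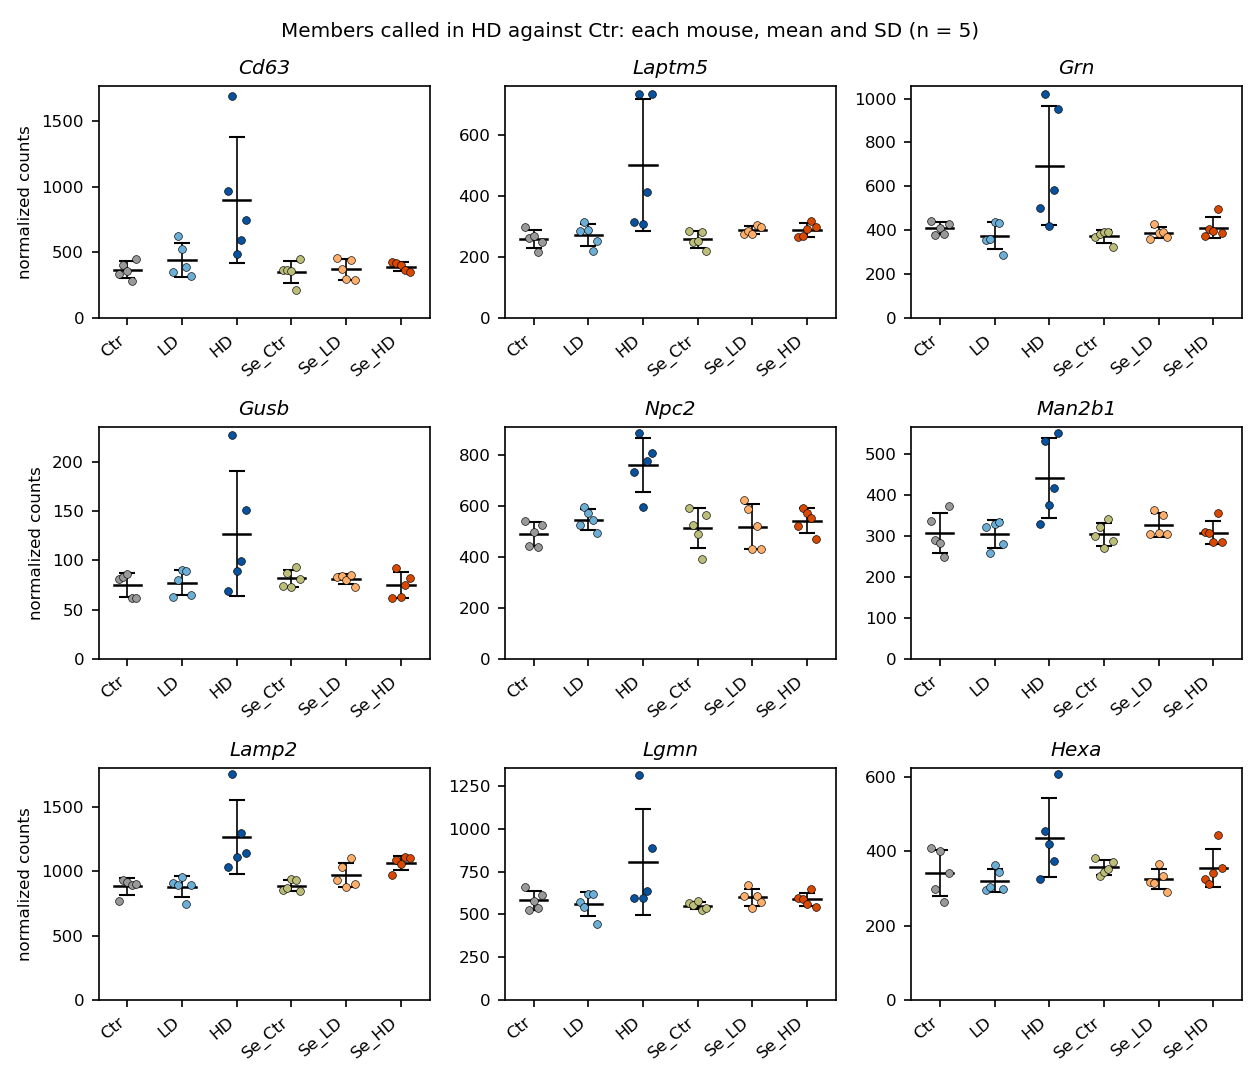
Normalized counts of the 9 members that rose in HD mice, 1 point per mouse, with the mean and SD of 5 mice per group. HD mice spread widely, from 489.4 to 1695 for Cd63, and for Grn, Se_HD replicate 4 is above all other mice outside HD.

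Markers of other cell types moved in the same mice. All 16 microglia markers were detected in every group, and 15 of the 16 rose in HD against Ctr, 5 of them at an adjusted p under 0.05 in limma, and 10 rose without HD replicates 2 and 5. The median over the 9 members of the log2 difference from the Ctr mean was 1.18 in HD replicate 2 and 0.86 in replicate 5, the mice with the highest summed microglia markers, and 0.52 in replicate 4, 0.23 in replicate 1 and 0.29 in replicate 3. Over the 28 other member rows the same median lay between -0.06 and 0.20 in the 5 HD mice. The rows were split by the HD against Ctr test itself, so the higher medians of the 9 are a description and support nothing. Single members did not all keep the order of the microglia markers: Cd63 was higher in HD replicate 1 (969.8) than in replicate 5 (749), and Lamp2 higher in replicate 4 (1295) than in replicate 5 (1139). Astrocyte markers moved as well: the summed level of 8 was 54730 to 89200 in HD and 45100 to 55550 in Ctr mice, and 4 of the 8 rose, among them Gfap, the filament protein of reactive astrocytes. Neuron markers summed to 41950 to 63680 in HD and 53170 to 62700 in Ctr mice, with the lowest value in HD replicate 2, and 6 of the 7 were below 0, of which 1, Gad1, the enzyme of GABA synthesis, fell, at -0.45. All 5 erythrocyte markers were below 0 at a median of -0.52, with none passing. All 6 choroid plexus markers had a positive log2 difference of HD from Ctr, 0.56 to 1.79 with a median of 1.1, and none passed. Their summed level was 6897 to 28900 in HD (median 26550) and 801.8 to 30620 in Ctr mice (median 10720). In HD replicates 1 to 5 it was 28670, 18660, 28900, 26550 and 6897, so leaving out replicates 2 and 5 kept the highest sums. In Ctr replicates 1 to 5 it was 801.8, 14460, 10720, 2266 and 30620, beside Cd63 at 338, 403, 361, 283 and 450.1. In Se_LD it was 23100, 26780, 1039, 36880 and 273.1, beside Cd63 at 453, 376, 295, 439.6 and 285. The part of these cell types in the members' result was not tested.

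**Figure D4:**
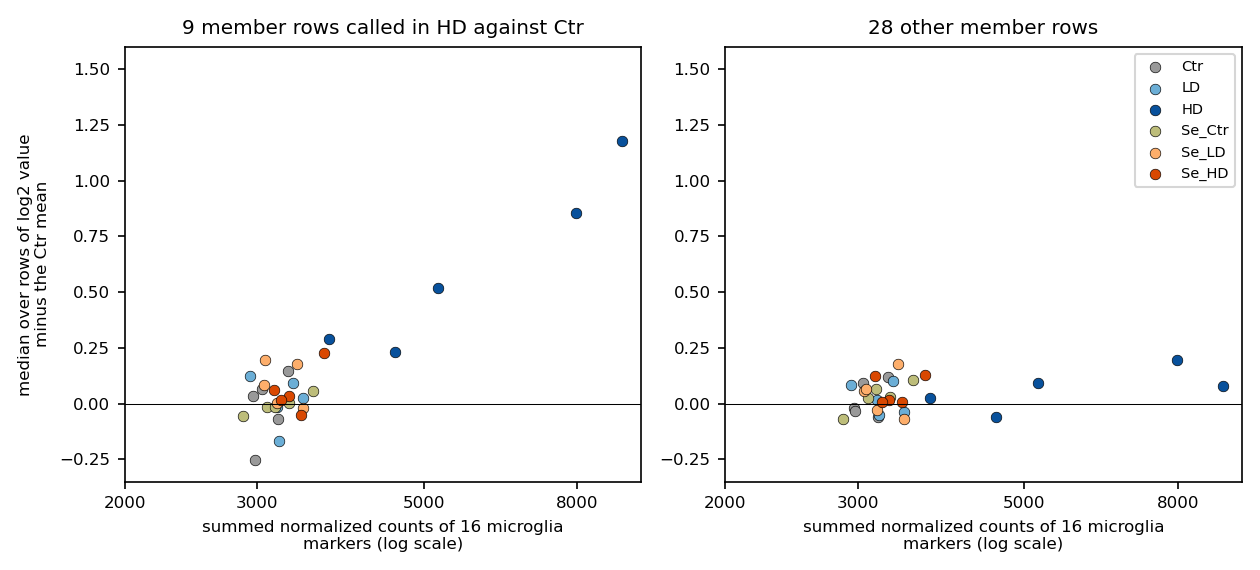
Median difference from the Ctr mean, in log2, of the 9 members that rose in HD mice (left) and of the 28 other member rows (right), against the summed level of 16 microglia markers on a log axis; the rows were split by the HD against Ctr test. Each point is 1 mouse, and HD replicate 2 lies farthest right, at 1.18 on the left and 0.08 on the right.

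The library numbers fall into 5 sets of 6 that each hold 1 mouse of every group. Within these sets the HD mouse was above the Ctr mouse in 5 of 5 for 7 of the 37 member rows (18.9%), Lamp2, Cd63, Laptm5, Man2b1, Npc2, Grn and Galc, and for 4.59% of all genes. These are the same mice as in the HD against Ctr test, so the tally is a description. With the set as a covariate 9 members passed, where 4.94% of all genes did, and the adjusted p in limma was 0.0313 for Cd63 and 0.023 for Npc2. All 5 HD values exceeded all 5 Ctr values for 4 member rows (Lamp2, Cd63, Laptm5 and Npc2), and no member had all 5 below, where 0.978% of all genes had all 5 above and 0.734% all 5 below.

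At the low dose no member passed. None of the 37 rows passed in LD against Ctr by limma, edgeR or DESeq2, where 1.46% of all genes passed in limma, and none had an unadjusted p under 0.05 for the comparison alone, as 3.01% of all genes did. Log2 differences ran from -0.21 to 0.25 with a median of 0.02. The smallest p was that of Npc2, whose log2 difference was 0.16 (SE 0.11, adjusted p = 0.999 in limma). In HD against LD the same 9 members rose as in HD against Ctr, where 4.49% of all genes passed and 3.04% were higher. None passed after adjustment, with a smallest adjusted p of 0.0998 in limma (Npc2). These comparisons share the HD mice, and 13 of 16 microglia and 5 of 8 astrocyte markers were also higher than in LD. All 6 choroid plexus markers were above 0 at a median of 0.667, with none passing. All 7 neuron markers were below 0, 1 of them passing, and all 6 oligodendrocyte markers were below 0, none passing. The part of these cell types was not tested. The log2 difference of HD from LD was 0.93 for Cd63, 0.82 for Grn, 0.78 for Laptm5 and 0.46 for Npc2. These were 0.62, 0.42, 0.34 and 0.35 without HD replicates 2 and 5, and 5 members passed, these 4 and Lamp2, where 2.33% of all genes did.

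In the selenium arm 1 member, Lamp2, rose in Se_HD against Se_Ctr, where 2.06% of all genes passed and 1.28% were higher. All 5 Se_HD mice exceeded all 5 Se_Ctr mice in Lamp2 alone among the member rows, and in 0.478% of all genes. The median over the member rows was 0.02, and differences ran from -0.21 (Galns) to 0.26 (Lamp2). Of the 9 members that rose in HD mice, 8 did not pass here, with log2 differences of 0.20 (SE 0.15) for Cd63, 0.16 (SE 0.08) for Laptm5, 0.14 (SE 0.08) for Grn and 0.09 (SE 0.11) for Npc2. Lgmn stood at 0.09 and Man2b1 at 0.02, while Gusb at -0.14 and Hexa at -0.01 had the other sign. Fuca1 had an unadjusted p of 0.0466 at 0.21 in limma but did not pass the F test, where 4.19% of all genes had a comparison p under 0.05 whatever the F test. None of the 16 microglia markers passed in this comparison by limma, edgeR or DESeq2, or at an unadjusted p of the comparison alone, and their summed level was 3163 to 3688 in Se_HD and 2871 to 3559 in Se_Ctr mice. Of other markers, Gfap rose by 0.51 (1 of 8 astrocyte markers) and Flt1 by 0.16 (1 of 5 endothelium markers), and all 6 choroid plexus markers were above 0, at a median of 0.73, with none passing. In Se_LD against Se_Ctr Sgsh alone rose, by a log2 difference of 0.48 (SE 0.17, adjusted p = 1.0 in limma), where 1.46% of all genes passed and 0.879% were higher. That count is 0 with all 30 libraries in 1 fit and 0 to 5 when 1 library is left out, with 0 without Se_LD replicate 4 and 5 without Se_Ctr replicate 4. In the same comparison all 6 choroid plexus markers were below 0 at a median of -0.75 and all 6 oligodendrocyte markers above 0 at a median of 0.20, none of them passing, while 1 of 16 microglia markers was lower and 1 of 5 endothelium markers higher. Their part was not tested.

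Between the control groups of the diets (Se_Ctr against Ctr) 1 member passed. Galc, the enzyme missing in Krabbe disease, was 248, 260.2, 261, 305 and 228 in Se_Ctr and 219, 191, 217, 249 and 235 in Ctr mice, a log2 difference of 0.23 (SE 0.09, adjusted p = 1.0 in limma), where 4.0% of all genes passed and 1.78% were higher. Fuca1 was lower in all 5 Se_Ctr mice (151, 155, 154, 148 and 151) than in all 5 Ctr mice (188, 167, 168, 158 and 189), at a log2 difference of -0.19 that did not pass in limma (adjusted p = 1.0), with 0.00794 in an exact two-sided permutation test. It was the single member row of 37 with all 5 below, as were 0.421% of all genes. Markers of other cell types differed too: all 5 erythrocyte markers were below 0 at a median of -0.85 and 2 of them fell, 1 astrocyte and 1 endothelium marker fell, 1 microglia marker rose, and choroid plexus markers had a median of 0.71 with none passing. Their part was not tested. At the low dose Laptm4a and Gla were lower with selenium (Se_LD against LD), by -0.24 and -0.31 in log2 (adjusted p = 1.0 for both in limma), where 2.86% of all genes passed and 1.5% were lower. The count of members passing in either direction, 2 here, was 5 with TMM size factors and 4 in edgeR. With 1 library left out it was 1 without LD replicate 2 or Se_LD replicate 4, 4 without LD replicate 3 or Se_LD replicate 5, and 5 without LD replicate 1. The 6 choroid plexus markers had a median of -0.51 here with none passing, and their part was not tested.

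At the high dose, 10 member rows were lower in Se_HD than in HD mice and none was higher, where 8.38% of all genes passed and 5.28% were lower. They were the 9 members that rose in HD mice and Gla, and this comparison shares the HD mice with the earlier ones. Cd63 differed by -1.06 (SE 0.22, adjusted p = 0.0208 in limma) and Grn by -0.67 (SE 0.16, adjusted p = 0.0455 in limma), the 2 member rows below 0.05 after adjustment, as were 0.327% of all genes. The adjusted p of Grn was 0.0542 with quantile normalization, 0.0563 with TMM size factors, 0.0731 with the library-number set as covariate and 0.133 by limma without trend, where that of Cd63 was 0.0847. It ran over all settings from 0.00138 to 0.69 for Grn and from 0.00105 to 0.601 for Cd63. With 1 library left out, that of Cd63 in limma was above 0.05 without HD replicate 2 (0.124) or 5 (0.0695). It was also above 0.05 without Se_HD replicate 2 (0.054), 3 (0.0593), 4 (0.0521) or 5 (0.0727). That of Grn was above 0.05 without HD replicate 2 (0.28), 4 (0.0518) or 5 (0.226), or Se_HD replicate 1 (0.142), 2 (0.119), 3 (0.114) or 5 (0.126). Npc2 differed by -0.48 (SE 0.11, adjusted p = 0.0507 in limma). Like Cd63, it had all 5 Se_HD mice below all 5 HD mice, as in 0.903% of all genes. In edgeR and DESeq2 the adjusted p was 0.0275 and 0.00598 for Npc2, and 0.00936 and 0.00153 for Laptm5. Without HD replicates 2 and 5 the differences were -0.75 for Cd63 (adjusted p = 0.601), -0.27 for Grn (adjusted p = 0.69) and -0.37 for Npc2 (adjusted p = 0.638), and 6 members were lower and 1, Asah1, higher, where 6.86% of all genes passed. In the same comparison on all mice, 14 of 16 microglia markers were lower (8 after adjustment, median -0.82), 5 of 8 astrocyte markers were lower (2 after adjustment) and 1 of 7 neuron markers, Gad1, was higher after adjustment. With HD replicates 2 and 5 left out, 8 microglia and 3 astrocyte markers were lower. The part of these cell types was not tested. Mercury in the tissue was not analysed here.

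Whether the effect of the high dose differed between the diets was tested directly, as the Se_HD minus Se_Ctr difference less the HD minus Ctr difference in 1 fit of all 30 libraries. A value below 0 means that the signed difference of Se_HD from Se_Ctr was lower than that of HD from Ctr, whether it was nearer to 0 or had the other sign. In this test 9 members passed below 0 and none above, where 4.77% of all genes passed, 2.96% below 0 and 1.82% above, and no member or other gene passed after adjustment. For Cd63, Laptm5, Npc2, Grn and Man2b1 both differences were above 0 and that with selenium was the smaller. For 4 of the 9 the sign turned, from 0.64 to -0.14 for Gusb, 0.26 to -0.21 for Galns, 0.25 to -0.16 for Gla and 0.21 to -0.08 for Galc, and none of these passed in Se_HD against Se_Ctr. For Galns and Galc the control groups differed as well. Means in Ctr, HD, Se_Ctr and Se_HD mice were 46.3, 55.4, 57.5 and 49.3 for Galns and 222, 257, 260 and 245.5 for Galc. Galc was also the member that passed in Se_Ctr against Ctr. Of the 9 members that passed below 0, 6 were among those that rose in HD mice. The difference between diets was -0.97 (SE 0.32) for Cd63, -0.78 (SE 0.28) for Gusb, -0.68 (SE 0.23) for Laptm5 and -0.54 (SE 0.16) for Npc2, with adjusted p of 0.703, 0.856, 0.798 and 0.546 in limma. Grn and Man2b1 completed the 6, and Gla, Galc and Galns passed here without having passed in HD against Ctr. For Gla, the galactosidase missing in Fabry disease, the HD values were 307, 321, 181, 211 and 213 and the Ctr values 219.8, 155, 204, 239 and 203, while Se_HD mice had 201, 182, 174, 162 and 172 and Se_Ctr mice 203, 206, 208, 176 and 205. Lamp2, Hexa and Lgmn did not pass the test of the difference, at -0.24 (adjusted p = 0.997 in limma) for Lamp2. Without HD replicates 2 and 5 the count was 3, namely Cd63 at -0.66 and Npc2 at -0.42, and Asah1 in the other direction at 0.30, where 4.35% of all genes passed. The 16 microglia markers moved with these members, 14 of them passing below 0 and 8 without HD replicates 2 and 5. On all mice 3 of 8 astrocyte markers also passed below 0 and 1 of 7 neuron markers above 0. Choroid plexus markers had a median of -0.535 with none passing, and 5 of 13 cathepsins passed below 0. The part of these cell types was not tested.

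Other genes of the organelle are given for comparison from lists drawn up with earlier results of these data known. Of 13 cathepsins, the lysosomal proteases left out of the members, 8 rose in HD against Ctr and none fell, among them Ctss at 1.09 (SE 0.22, adjusted p = 0.0497 in limma), Ctsh at 1.11 and Ctsd at 0.96. Of 26 further lysosomal genes tested, 5 rose and 1, Laptm4b, fell at -0.36. Cd68, a lysosomal glycoprotein of phagocytes, rose by 1.38 (SE 0.26, adjusted p = 0.0391 in limma) and the metal transporter Slc11a1 by 1.16. None of the 19 subunits and partners of the proton pump that acidifies the lysosome (V-ATPase) passed in limma, edgeR or DESeq2, and 1, Atp6v0a2 at 0.26, had an unadjusted p under 0.05 for the comparison alone. Their median was 0.01. None of the 9 genes tested for sorting of hydrolases and related transcription factors passed by these tools or at an unadjusted p of the comparison alone, with differences from -0.11 (Sort1) to 0.07 (Sumf1). With HD replicates 2 and 5 left out, 4 of 13 cathepsins and 3 of 26 further lysosomal genes rose and 1 of the latter fell, and none of the 19 and 9 genes passed. In Se_HD against Se_Ctr the counts were 2 of 13 cathepsins higher (Ctsc and Ctsh), 1 of 9 sorting genes lower (Nagpa), and 0 of 19 V-ATPase and 0 of 26 further lysosomal genes in limma.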

How the data were processed

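Hippocampus RNA of 30 mice was sequenced as stranded single-end libraries. According to the methods and processing notes, the authors trimmed reads with TrimGalore, aligned them with Hisat2 to the Ensembl NCBIM37 build, counted them with FeatureCounts, removed genes with a low row sum and scaled counts in DESeq2. The strand setting of the counting is not given in the sources used here. The deposited values are a signal, reads per gene divided by a size factor per library, and 100% of them came back as whole reads (tolerance 0.01). Lower depth gives less precise counts, and the Ctr libraries were the shallowest (median 7119788 reads, against 10159514 in HD).

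The members and all gene lists were chosen with earlier results of these data known. Values were tested as log2(value + 1) with limma 3.58.1 (moderated test with trend, R 4.3.3), in genes with a sum of at least 10 over the libraries fitted, within each diet on 15 libraries, or on all 30 libraries for comparisons across diets. Within a diet a gene passed at p under 0.05 in the F test and in the comparison, and across diets in the comparison. P-values were adjusted over all genes tested (Benjamini-Hochberg). Counts recovered from the deposited values were also tested with edgeR 4.0.16 and DESeq2 1.42.0. The scripts were tested on simulated data. Single members were also compared by exact two-sided permutation tests, whose smallest p is 0.00794. Values per mouse are given for members that passed in HD against Ctr, for the other members highest and lowest per kb in each role, and for Tfeb. Other members are named with values where they passed in another comparison or marked the end of a range. Atp6v0d2 and Mcoln2 were not analysed here.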

Additional observations from a re-analysis of the deposited data

Results flagged for a closer look

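In 9 of the 222 groups of 5 mice (37 member rows in 6 groups), 1 mouse stood far from the others, with a gap to its nearest neighbour of more than 0.71 of the range of the group. Chance alone gives this in about 1 of 20 groups, or 11.1 of 222. Lamp2 was 768 normalized counts in Ctr replicate 1 and 892 to 936 in the other mice of its group, a gap of 0.742 of the range. Npc1 was 446 normalized counts in Se_LD replicate 5 and 506 to 527 in the other mice of its group, a gap of 0.742 of the range. Mcoln1 was 417 normalized counts in Ctr replicate 1 and 306 to 332 in the other mice of its group, a gap of 0.758 of the range. Gla was 176 normalized counts in Se_Ctr replicate 4 and 203 to 208 in the other mice of its group, a gap of 0.867 of the range. Idua was 60.5 normalized counts in LD replicate 2 and 97.8 to 102 in the other mice of its group, a gap of 0.91 of the range. Galns was 74.4 normalized counts in Se_Ctr replicate 4 and 50.4 to 57.1 in the other mice of its group, a gap of 0.721 of the range. Ids was 8736 normalized counts in Ctr replicate 4 and 6237 to 6706 in the other mice of its group, a gap of 0.813 of the range. Psap was 14810 normalized counts in Se_Ctr replicate 1 and 12600 to 13220 in the other mice of its group, a gap of 0.717 of the range. Grn was 495 normalized counts in Se_HD replicate 4 and 375 to 406 in the other mice of its group, a gap of 0.744 of the range.

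The effect of the high dose differed between the diets in 9 members at an unadjusted p under 0.05 and in none after adjustment in limma. As the effect with selenium minus that without, on the log2 scale, the differences were -0.971 for Cd63, -0.778 for Gusb, -0.683 for Laptm5, -0.535 for Npc2, -0.535 for Grn, -0.49 for Man2b1, -0.469 for Galns, -0.412 for Gla and -0.292 for Galc. The diets were compared between different mice, and whether both arms were run together is not given in the sources used here.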

How the results depend on the processing

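The count of 9 members higher in HD than in Ctr mice was also 9 under 10 of the 12 alternatives listed before the analysis, with 6 by limma without trend and 10 without the F test, and it was 6 to 10 with 1 library left out. After adjustment 1 member passed in limma, 0 by limma without trend (Npc2 0.106), 2 with the library-number set as covariate, 6 with all 30 libraries in 1 limma fit, 2 in edgeR and 5 in DESeq2. The share of all genes passing after adjustment is given here for the main limma fit alone (0.13%). The other counts therefore have no such reference. The adjusted p ran over all settings from 0.00502 to 0.445 for Cd63, 0.00671 to 0.557 for Lamp2, 0.00594 to 0.692 for Laptm5 and 0.0242 to 0.817 for Grn. Without HD replicates 2 and 5, chosen after seeing the data, the count was 4 in HD against Ctr, 5 in HD against LD and 3 for the difference between diets. With 1 library left out the counts were 0 to 0 in LD against Ctr, 6 to 10 in HD against LD, 1 to 3 in Se_HD against Se_Ctr, 0 to 5 in Se_LD against Se_Ctr, 0 to 2 in Se_Ctr against Ctr, 7 to 12 in Se_HD against HD, 1 to 5 in Se_LD against LD and 6 to 13 for the difference between diets. The share of all genes passing in each of these fits is not given here, so the counts describe stability only.

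Small counts moved with the settings. In Se_HD against Se_Ctr the count of 1 was 2 without the F test. In Se_LD against Se_Ctr it was 2 with the library-number set as covariate and 0 with all 30 libraries in 1 fit, and without Se_LD replicate 4 it was 0. In Se_Ctr against Ctr it was 2 with a mean of at least 10, with quantile normalization and by limma without trend, and 0 without Ctr replicate 2 or Se_Ctr replicate 4. In Se_LD against LD the count of 2 was 5 with TMM size factors and 4 in edgeR. The cause of these shifts was not tested. Gusb, Hexa and Lgmn stopped passing in HD against Ctr by limma without trend, and Lgmn also without Ctr replicate 2 (0.37), Ctr replicate 4 (0.37), HD replicate 2 (0.21) or HD replicate 5 (0.35). No called member changed direction, but the median over the members turned from 0.02 to -0.01 in LD against Ctr without LD replicate 3, and from 0.03 to -0.02 in Se_LD against Se_Ctr without Se_LD replicate 2. The replicate numbers follow accession order and pair no mice, so the only block fitted was the library-number set. With it the adjusted p in limma passed below 0.05 for Cd63 in HD against Ctr (0.0313) and above it for Grn in Se_HD against HD (0.0731). Members such as Tfeb and Naglu rest on few reads, with means of 36.3 and 41.6 normalized counts over all 30 mice. Small differences in them may have been missed, which was not tested.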
